A study of Bos taurus with 147 samples.

Results

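COA5 (transcript cluster 12707959) and UNC50 (12699870), and FAM160A1 (12747149) and SH3D19 (12743852), are neighbouring gene pairs in the cattle genome whose transcripts were measured in adrenal cortex. These 4 of 10986 transcripts were chosen on the correlation of the partners across cows: the first pair ran in opposite directions and the second in parallel. The correlation within each pair is therefore given as a description without a test. All of them stand on the study's list of transcripts associated with a SNP, and the partners of each pair share SNPs on that list, which is how the pairs had come to be examined. The study looked for SNPs associated with transcript levels in the adrenal cortex, and genotypes were not analysed here.

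The 145 animals were female F2 cows of a cross of Charolais and German Holstein, kept and fed alike and slaughtered early in the second lactation. They fall into 25 classes of year and season of slaughter with 2 to 13 cows each. Slaughter ran over 8 years, counted here from year 1, that of Summer2004, to year 8, which is 2011, with 6 to 39 cows a year. By season there were 45 summer cows, 38 autumn cows, 36 spring cows and 26 winter cows. The cows were 1127 to 1774 days old, with a median of 1294 days. No animal was treated, and the labels set the groups apart by year, season and age alone. Whether the classes also differed in family was not examined. Many cows were sibs, and the family was not a term here, so p-values may be too small. The cortex was dissected from the medulla and total RNA of each cow was hybridised to 1 custom Affymetrix Bovine Gene array. The values are log2 signals, on which 1 unit is a doubling. They cannot be compared between different transcripts, because each transcript has its own probes. In bulk tissue, fewer cells of a type and less RNA per cell cannot be told apart.

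The tissue label was checked on marker genes. All 8 measured of 12 adrenocortical markers, among them CYP11A1, HSD3B1 and MC2R, the receptor for corticotropin, had mean log2 signals of 9.51 to 13.85. The summed signal of these markers ran from 15.55 to 15.98 between cows. The sum of 8 measured chromaffin markers ran from 10.21 to 14.94, so the amount of medullary RNA differed between cows. The medians of the arrays lay between 7.89 and 8.08, and array pairs correlated at 0.895 to 0.991 across transcripts.

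Neighbouring genes can share a promoter, an enhancer or a domain of chromatin, and their transcripts often rise and fall together from individual to individual. They can also compete for the same regulatory element. COA5 is a small cysteine-rich protein of mitochondria that is needed to assemble cytochrome c oxidase, the terminal enzyme of the respiratory chain. UNC50 is a membrane protein of the Golgi apparatus that binds the ARF activator GBF1, and in Caenorhabditis elegans it is needed for the transport of a class of acetylcholine receptors. FAM160A1, now named FHIP1A, belongs to a family of proteins that join Hook adaptors and AKTIP to link vesicles to the motor dynein. SH3D19 is an adaptor with SH3 domains that binds ADAM proteases, the enzymes that release ligands of the EGF receptor from the cell surface.

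On the UMD3.1 assembly, COA5 lies on the minus strand of chromosome 11 at 3758835 to 3793387 and UNC50 on the plus strand at 3793440 to 3802385. The genes stand head to head with 52 bases between them. FAM160A1 lies on the minus strand of chromosome 17 at 6088753 to 6207768 and SH3D19 on the plus strand at 6636917 to 6686708. These genes also point away from each other, but 429148 bases lie between them. No other protein-coding gene stands between the partners of either pair in the RefSeq gene order.

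FAM160A1 varied far more between cows than the other members. Its log2 signal ran from 5.58 to 8.39 with a median of 6.95, a 7.01-fold range, and its SD within classes was 0.68. Among the transcripts in its decile of the mean level, whose median SD was 0.28, 97.3% had an SD no larger. COA5 ran from 6.19 to 7.77 with a median of 7.10 and an SD within classes of 0.31, a 2.99-fold range. UNC50 ran from 8.86 to 9.99 with a median of 9.51 and an SD of 0.22, a 2.18-fold range. SH3D19 ran from 7.34 to 8.78 with a median of 8.07 and an SD of 0.29, a 2.71-fold range. In the deciles of these 3 genes the same share was 58.3%, 44.1% and 65.1%.

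FAM160A1 was also the only member whose residuals were described better by 2 normal components than by 1. The residual is the value left after the class mean and the age term were taken off. The lower component held 79 cows around a residual of -0.47 and the higher component 66 cows around 0.56, with an SD of 0.35 within each. Their log2 signals overlapped in part, from 5.58 to 7.87 with a median of 6.40 in the lower and from 6.62 to 8.39 with a median of 7.56 in the higher component. There was no empty gap, as 29 cows lay within 0.2 of the boundary at a residual of 0.06. COA5, UNC50 and SH3D19 each fell into a single component.

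COA5 and UNC50 moved against each other within classes. The residuals correlated at r = -0.332 over 145 cows (Spearman's rho = -0.354), and 87 cows had COA5 and UNC50 on opposite sides of 0 against 58 on the same side. Of the 87, COA5 was high and UNC50 low in 43 and the reverse in 44. Without class and age terms the correlation was -0.251. It was -0.302 in the 36 spring cows, -0.484 in the 45 summer cows, -0.189 in the 38 autumn cows and -0.335 in the 26 winter cows. In each of the 8 years it was also below 0, between -0.655 in year 4 (22 cows) and -0.067 in year 3 (6 cows). Among the 13 classes with at least 6 cows, 12 were below 0 and autumn 2008, with 10 cows, was at 0.158. Leaving out any single cow kept it between -0.354 and -0.312.

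FAM160A1 and SH3D19 moved together. The residuals correlated at r = 0.505 (rho = 0.489), with 99 cows on the same side of 0, 51 high for both and 48 low for both, against 46 on opposite sides. The correlation was 0.497 without class and age terms. It was 0.462 in spring, 0.425 in summer, 0.514 in autumn and 0.659 in winter. Over the years it was less even, from -0.705 in the 6 cows of year 3 and 0.065 in the 24 cows of year 6 to 0.807 in the 15 cows of year 8. Among the 13 classes with at least 6 cows, 12 were above 0, with a median of 0.746. Autumn 2009, with 7 cows, was at -0.321. Leaving out any single cow kept it between 0.490 and 0.519.

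Because FAM160A1 fell into a lower and a higher component, the relation was also taken inside each. It was 0.202 in the 79 cows of the lower and 0.291 in the 66 cows of the higher component, both under the pooled value, and each spans a narrower range of FAM160A1 by construction. SH3D19 residuals had a median of -0.11 in the lower component, from -0.70 to 0.42, and of 0.12 in the higher component, from -0.28 to 0.69. The components thus differed in the median of SH3D19 while their ranges overlapped. As the pair was chosen on the correlation of these residuals, such a difference follows from the choice. Across the pairs, correlations were weak: 0.194 for UNC50 with SH3D19, -0.143 for UNC50 with FAM160A1, 0.095 for COA5 with SH3D19 and 0.069 for COA5 with FAM160A1.

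**Figure D1:**
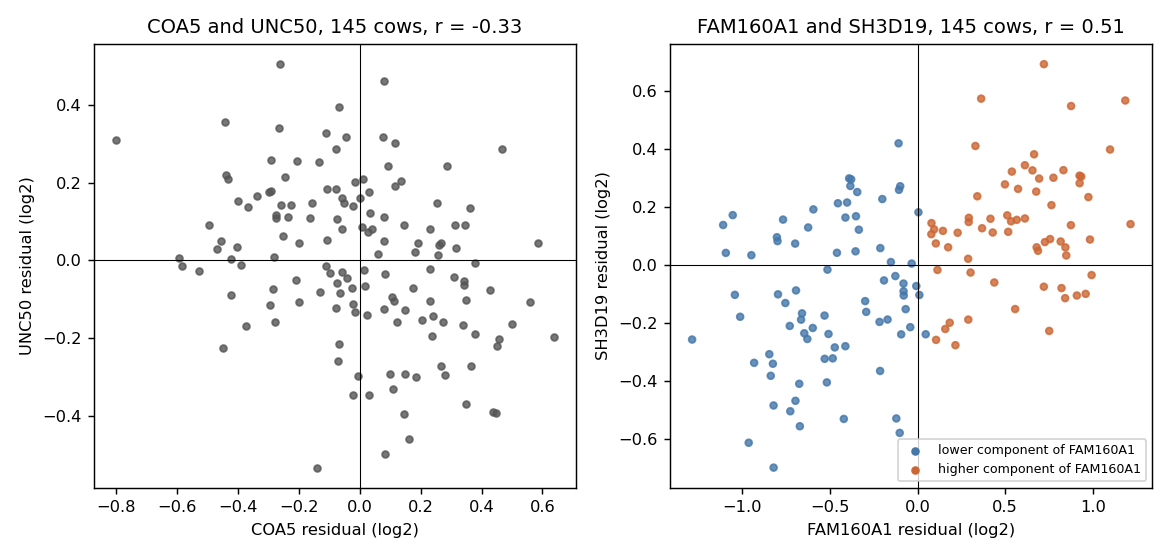
Residual log2 signal of each partner in the 145 cows, after class and age were taken off, with COA5 against UNC50 on the left and FAM160A1 against SH3D19 on the right. Each point is a cow; colours on the right mark the 79 cows of the lower and the 66 cows of the higher component of FAM160A1. The cloud on the left falls (r = -0.332) and the cloud on the right rises (r = 0.505).

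A large part of the variation on these arrays is shared by many transcripts. The first principal component of the residuals of all transcripts held 28.9% of the residual variance. Its absolute correlation was 0.447 with SH3D19, 0.336 with UNC50, 0.312 with COA5 and 0.122 with FAM160A1. With this component removed, both pair correlations were larger in size, at -0.488 for COA5 and UNC50 and 0.630 for FAM160A1 and SH3D19. With the first 5 components removed, which together held 51.6% of the variance, they were -0.601 and 0.698. Removing the scores of 7 cell type marker lists gave -0.348 and 0.601.

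Among all transcripts, the rank of a partner depended on that shared component. In the plain residuals, 443 of 10985 other transcripts had a lower correlation with COA5 than UNC50 had, and 805 had a lower correlation with UNC50 than COA5 had. SH3D19 had the highest correlation of all 10985 with FAM160A1, while 153 transcripts correlated more highly with SH3D19 than FAM160A1 did. With the first component removed, UNC50 had the lowest correlation of all with COA5 and COA5 the lowest with UNC50. FAM160A1 and SH3D19 likewise each had the other as the transcript with the highest correlation. These ranks rest on the correlations that chose the pairs.

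Neighbours in the genome mostly correlated above 0, and pairs that are not adjacent were not set beside them. Among 3839 pairs of adjacent protein-coding genes measured here, the members' pairs included, the residual correlation had a median of 0.273. Of these pairs, 24.6% were below 0. At or below COA5 and UNC50 were 230 of them (5.99%), while 1081 (28.2%) were at or above FAM160A1 and SH3D19. The members' pairs were chosen on this correlation in these cows, so such shares are a description only. Of the 635 pairs with 0 to 1000 bases between the genes, 101 were below 0 and 19 (2.99%) were at or below COA5 and UNC50. Over all adjacent pairs the lowest were MYD88 and OXSR1 at -0.773, STRADA and CCDC47 at -0.765 and ROMO1 and RBM39 at -0.750. The highest were C1QC and C1QA at 0.954, TMEM176B and TMEM176A at 0.948 and ANG and ANG2 at 0.946. The lowest of the close pairs were STRADA and CCDC47 at -0.765, COG8 and NIP7 at -0.703 and DDHD2 and PLPP5 at -0.614. Among them the highest were DCLRE1A and NHLRC2 at 0.889, GUF1 and GNPDA2 at 0.888 and NRDC and OSBPL9 at 0.883.

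The same pairs were read again with the first component removed. These pairs were picked for their extreme values before the removal, so their change is given as values only. STRADA and CCDC47 went to 0.051, COG8 and NIP7 to 0.059 and DDHD2 and PLPP5 to -0.227. DCLRE1A and NHLRC2 went to 0.414, and C1QC and C1QA, subunits of the complement protein C1q, were still at 0.944. The median over all 3839 pairs fell to 0.084, and 34.1% were below 0. At or below COA5 and UNC50 were then 8 pairs (0.208%), and at or above FAM160A1 and SH3D19 were 54 pairs (1.41%). These shares too rest on the correlations that chose the members' pairs.

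**Figure D2:**
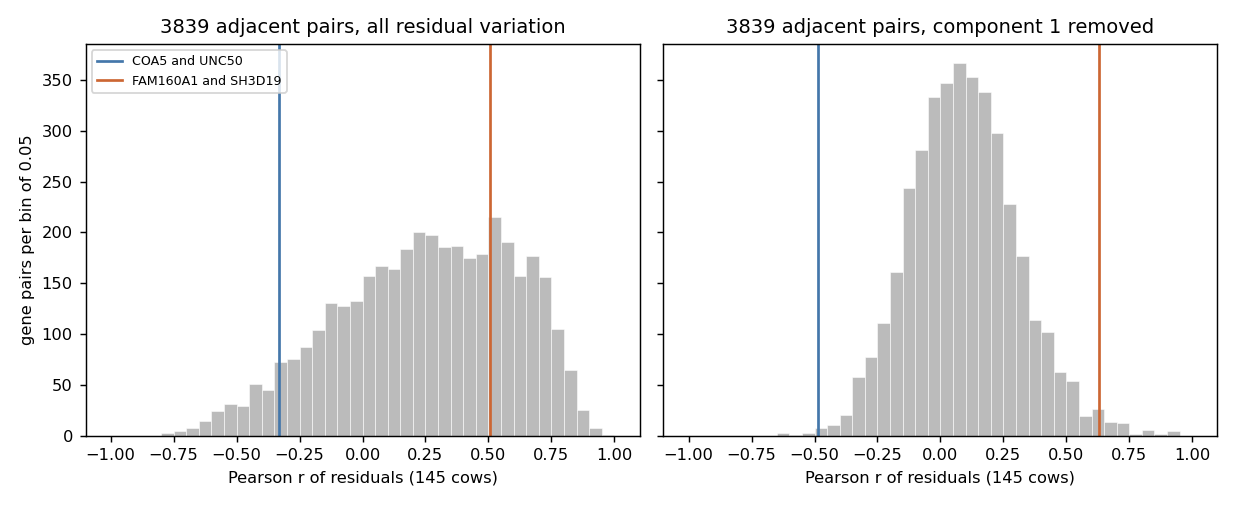
Number of adjacent protein-coding gene pairs by residual correlation over 145 cows, in bins of 0.05, with all residual variation on the left and with the first principal component removed on the right. The lines mark COA5 and UNC50, at -0.332 and -0.488, and FAM160A1 and SH3D19, at 0.505 and 0.630. The lines move outwards from left to right while the 3839 pairs draw in towards 0. The marked pairs were chosen on their correlation in these cows.

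The genes further out on either side were taken next, to see how far along the chromosome each member ran with its surroundings. Of the 30 protein-coding genes around COA5 and UNC50, 15 to either side, 10 were measured. MGAT4A, a Golgi glycosyltransferase next to UNC50, rose with both (r = 0.397 with UNC50 and 0.254 with COA5). TXNDC9 also ran in the same direction with both (0.291 and 0.256), and so did ACTR1B, ANKRD39, CNNM3 and LMAN2L on the far side, all below 0 with both. INPP4A, the gene next to COA5, had 0.203 with UNC50 and -0.107 with COA5. MRPL30, a mitochondrial ribosomal protein, rose with UNC50 (0.314, limma adjusted p = 0.00251) and had -0.099 with COA5 (adjusted p = 0.381). LIPT1, a lipoyl transferase of mitochondria, rose with COA5 (0.347, adjusted p = 0.00194) and had 0.156 with UNC50 (adjusted p = 0.143). TMEM131 had 0.158 and 0.171. For each of COA5 and UNC50, 6 of the 10 passed the test, 3 in each direction, against a background of 41.9% and 49.5% of all transcripts. After removal of the first component the neighbours ran from -0.158 to 0.244 with COA5, and from -0.177 to 0.409 with UNC50, where the highest was MRPL30.

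Around FAM160A1 and SH3D19, 6 of 30 neighbours were measured. With FAM160A1 all 6 were slightly below 0, from -0.194 for TLR2 to -0.056 for PRMT9. None passed the limma test, and 2 had an unadjusted p under 0.05, with 0.792% of all transcripts passing for FAM160A1. The same 6 genes ran from 0.066 for TMEM184C to 0.437 for ARFIP1 with SH3D19, and PLRG1, TRIM2, ARFIP1 and PRMT9 rose with it. The background for SH3D19 was 61.7%, so 4 of 6 was close to it. After that removal they ran from -0.263 to 0.131 with SH3D19 and from -0.172 to 0.092 with FAM160A1.

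**Figure D3:**
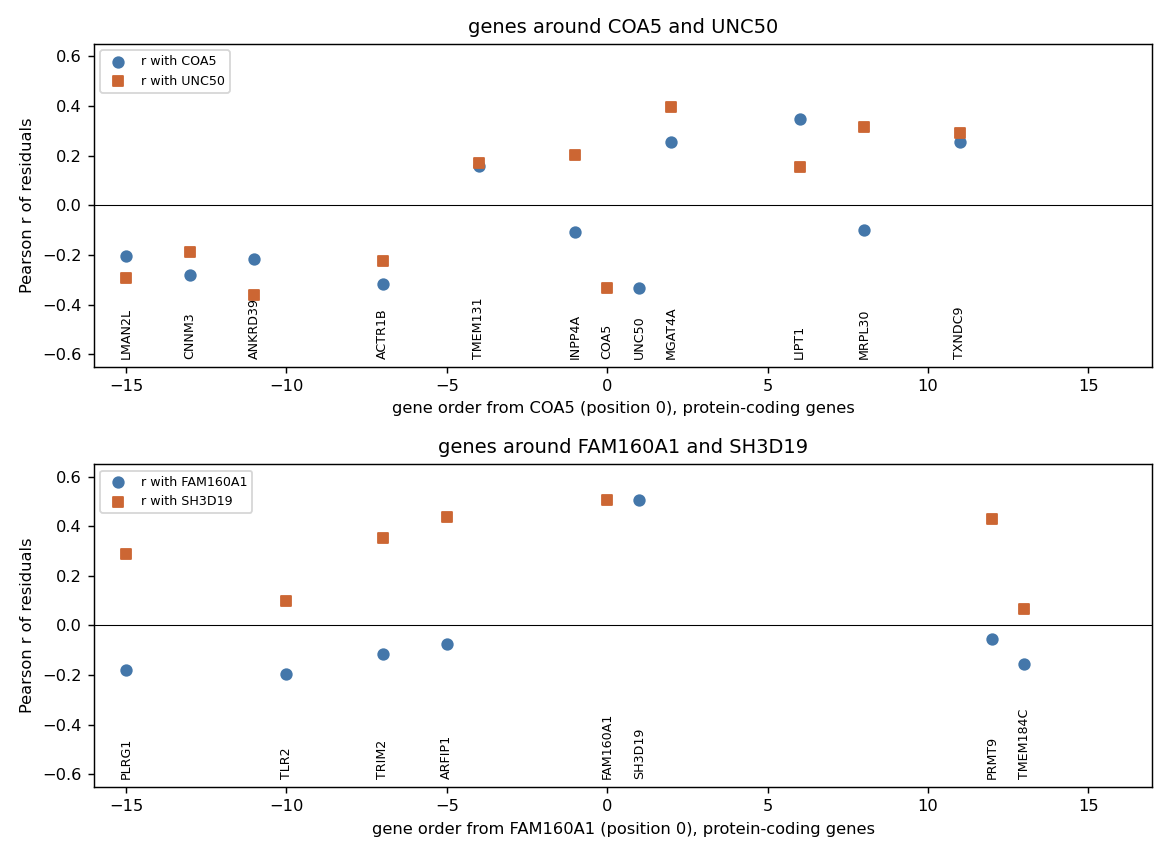
Residual correlation over 145 cows of each measured protein-coding gene within 15 genes of the pairs, by gene order, for COA5 and UNC50 (top) and FAM160A1 and SH3D19 (bottom). Circles give r with the first gene of a pair and squares r with the second. INPP4A and MRPL30 lie on opposite sides of 0 for COA5 and UNC50, and all 6 neighbours of the lower pair lie below 0 for FAM160A1 and above 0 for SH3D19.

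The study's design also allows the members to be compared over years, seasons, classes and ages. The pairs were chosen on residuals from which the class means and the age term had been taken off. That choice was made on the same cows. The year of slaughter showed the clearest differences. COA5 and UNC50, opposite within classes, both rose over the years. COA5 rose by 0.055 ± 0.014 (SE) on the log2 scale per year (95% confidence interval 0.028 to 0.082, limma adjusted p = 0.000512). Its mean was 6.81 ± 0.25 (SD, n = 11) in year 2 and 6.67 ± 0.38 (n = 6) in year 3, against 7.18 ± 0.32 (n = 21) in year 7 and 7.22 ± 0.31 (n = 15) in year 8. UNC50 rose by 0.027 ± 0.0096 per year (adjusted p = 0.0176), from a mean of 9.39 ± 0.28 (n = 7) in year 1 to 9.61 ± 0.17 (n = 15) in year 8. The respiratory assembly factor and the Golgi protein thus moved the same way over time. SH3D19 fell by 0.030 ± 0.012 per year (adjusted p = 0.0387), from 8.23 ± 0.16 (n = 7) in year 1 to 7.93 ± 0.26 (n = 15) in year 8. FAM160A1 had a slope of -0.033 ± 0.029 (adjusted p = 0.366), from 7.22 ± 0.67 in year 1 to 6.84 ± 0.67 in year 8. In all 4 genes the cows of year 1 and year 8 overlapped.

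Slopes on the year were common, as 44.9% of all transcripts passed the test, 25.7% rising and 19.2% falling, so 3 of 4 members is no particular feature of them. The partners' slopes did not differ beyond their error: the slope of the log2 ratio of COA5 to UNC50 was 0.028 (95% confidence interval -0.0094 to 0.066, adjusted p = 0.222), and that of FAM160A1 to SH3D19 was -0.0031 (-0.053 to 0.046, adjusted p = 0.935). The COA5 slope passed with each single year left out in turn. The UNC50 slope did not pass without year 1, 2 or 8 (adjusted p = 0.0607, 0.0705 and 0.127). The SH3D19 slope did not pass without year 1, 2, 5, 7 or 8 (adjusted p = 0.139, 0.0654, 0.0507, 0.136 and 0.126). Of the 42 cows in the 12 classes of 2 to 5 cows, left out in turn, any of 8 ended the SH3D19 call, with adjusted p of 0.0507 to 0.0706: cow 3 of autumn2004, cows 2 and 3 of Summer2004, cows 3 and 4 of Spring2005, cow 4 of Summer2005, cow 2 of autumn2005 and cow 2 of autumn2011.

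**Figure D4:**
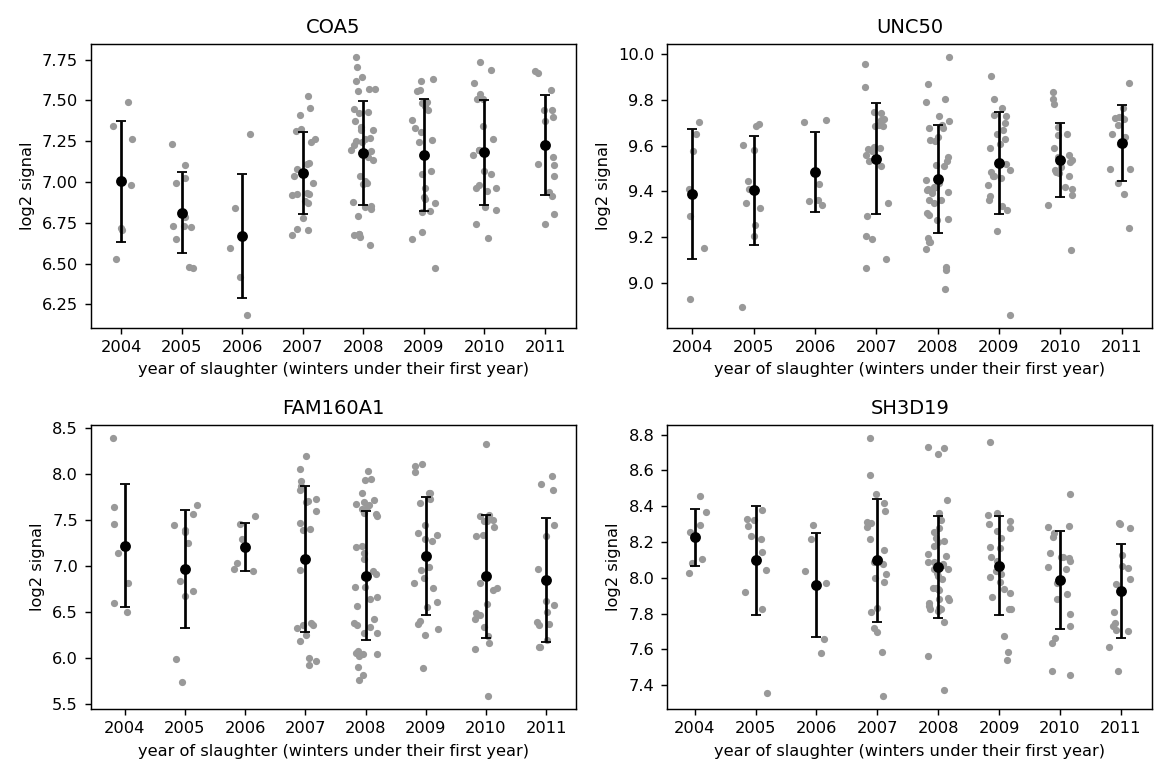
Log2 signal of each member by year of slaughter, with winters placed under the first of their years. Grey points are cows (6 to 39 a year), black points are means and bars are SDs. The COA5 mean is lowest in the second and the third year, the UNC50 mean is highest and the SH3D19 mean lowest in 2011, and the FAM160A1 means run from 6.84 to 7.22.

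Over the 25 classes, only COA5 passed the F-test (F = 2.21, limma adjusted p = 0.0274), where 11.6% of all transcripts did. Its age-adjusted class means ran from 6.49 in Spring2006 (4 cows) to 7.36 in winter 2009/2010 (4 cows). The 4 Spring2006 cows lay between 6.19 and 6.84 and the 4 winter cows between 7.31 and 7.49, so those classes did not overlap. The call was lost without cow 2 or cow 4 of Spring2006 (adjusted p = 0.0891 and 0.0676). UNC50 had an adjusted p of 0.686, SH3D19 of 0.778 and FAM160A1 of 0.796, and the log2 ratios of 0.376 and 0.759.

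Season and age gave no calls. No transcript of 10986 (0%) passed limma for age, for any season difference or for summer against winter, while 930, 1357 and 1298 had an unadjusted p under 0.05. FAM160A1 had medians of 6.96 in spring, 7.07 in summer, 7.04 in autumn and 6.42 in winter, with wide overlap (5.81 to 8.39 in summer and 5.58 to 8.04 in winter). Its summer minus winter difference was 0.34 (95% confidence interval 0.033 to 0.64, unadjusted p = 0.0298, limma adjusted p = 0.377). SH3D19 had -0.078 (-0.21 to 0.049) in the same comparison, with medians of 8.06 in summer and 8.11 in winter. The log2 ratio of FAM160A1 to SH3D19 was 0.41 higher in summer than in winter (0.15 to 0.67, unadjusted p = 0.00197), which did not pass over all transcripts (adjusted p = 0.281). COA5 had -0.044 (-0.18 to 0.095) and UNC50 0.055 (-0.044 to 0.15). The slopes on age ran from 0.0041 ± 0.018 per 100 days for UNC50 to 0.046 ± 0.056 for FAM160A1.

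The relation between partners was also taken over the 25 age-adjusted class means. Means of so few cows carry the variation between the same cows on which the pairs were chosen, so these values are a description without a test. COA5 and UNC50 had r = 0.013 and rho = -0.025 over the classes, and r was -0.078 without the 2 class means farthest from the median. The class means of FAM160A1 and SH3D19 correlated at r = 0.599 with rho = 0.426. That value rested on Spring2007 and Summer2004, with 3 cows each, where FAM160A1 was at 8.01 and 7.76 and SH3D19 at 8.39 and 8.29. Without them r was 0.258, and over the 15 classes with at least 5 cows it was 0.158.

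The genes that followed each member were sought with a slope of every transcript on the member's residual, the partner being left out. With COA5, 4605 of 10984 transcripts (41.9%) passed the limma test, 22.5% rising and 19.5% falling with it. UNC50 had 5437 (49.5%, with 26.8% rising and 22.7% falling) and SH3D19 6782 (61.7%, with 30.2% and 31.5%). FAM160A1 had 87 (0.792%, with 0.464% rising and 0.328% falling). When the first component was a covariate the counts were 118 for COA5, 1428 for UNC50, 1027 for SH3D19 and 141 for FAM160A1, and 93, 976, 652 and 78 of these transcripts had also been called without it. Of the shared calls, 967 of 976 for UNC50 and 612 of 652 for SH3D19 had the same direction, as did all 93 for COA5 and all 78 for FAM160A1. Most of the calls of FAM160A1 were thus also made with the covariate, while most of those of the other members were not.

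COA5 was followed most closely by BBS4, a subunit of the BBSome complex of cilia (r = 0.518, limma adjusted p = 1.57e-05). CHN1, a GTPase-activating protein for Rac, came next (0.515, adjusted p = 1.44e-05), then RCBTB2 (0.503), the sorting nexin SNX24 (0.478), ORMDL1, a brake on sphingolipid synthesis (0.466), and CREBL2 (0.459). In the opposite direction stood LRRC41 at -0.474, the elongation factor of RNA polymerase II ELL at -0.473, RRP7 at -0.465, PRRC2A at -0.465, the palmitoyltransferase ZDHHC5 at -0.457 and the proprotein convertase FURIN at -0.449. Over the same cows BBS4 had 0.163 with UNC50, CHN1 0.157, ORMDL1 0.253, PRRC2A -0.360 and LRRC41 -0.287. These genes were picked for their extreme r with COA5, so smaller values with the partner follow from the choice. The same holds for the followers of the other members below. With the shared component removed BBS4 had 0.460 and LRRC41 -0.384 with COA5.

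The closest followers of UNC50 included MRPL33 and COX7B, both coding for mitochondrial proteins. The highest was MRPL33, a protein of the large mitochondrial ribosomal subunit, at r = 0.623 (adjusted p = 3.87e-10) and 0.577 for a further transcript cluster of that name. COX7B, a subunit of cytochrome c oxidase, had 0.582 (adjusted p = 1.13e-08). GNG10, a G protein gamma subunit, had 0.562, the transporter MFSD1 of lysosomes 0.555 and TMEM243 0.551. In the opposite direction stood the myosin MYO1C at -0.548, the transcription factor STAT6 at -0.539, the lysosomal protease CTSD at -0.517, SERINC2 in a pair of clusters at -0.516 and -0.514, and MAP1LC3A, a protein of autophagosomes, at -0.513. With COA5 these genes had values between -0.224 for MAP1LC3A and 0.217 for MFSD1. MRPL33 had 0.560 and COX7B 0.506 with the first component removed.

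FAM160A1 had fewer followers, and the first component hardly touched them. SLITRK2, a transmembrane protein best known from neurons, ran most strongly against it (r = -0.586, adjusted p = 1.14e-08, and -0.580 with the component removed). PKP2, a plakophilin of desmosomes, had -0.439, ADHFE1 -0.426, TBC1D1, a Rab GTPase-activating protein, -0.417, SLC35G1 -0.411 and PIGM -0.408. On the rising side stood SRD5A1, the steroid 5-alpha-reductase, at 0.491 (adjusted p = 2.24e-05), PAQR4 at 0.477 and AVPR1A, the vasopressin V1a receptor, at 0.471. ST3GAL2, a sialyltransferase, had 0.464, ENTPD6 0.444 and OOEP 0.429. With SH3D19, on which these genes were not picked, PAQR4 had 0.048, AVPR1A 0.050, ENTPD6 -0.024, PKP2 0.127, SRD5A1 0.254 and SLITRK2 -0.191.

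SH3D19 was followed by TCAIM, a mitochondrial protein (r = 0.643, adjusted p = 1.51e-11), PHLDB2 (0.634), PPP1R21 (0.629) and PDE8B, a phosphodiesterase that breaks down cyclic AMP (0.626). EOGT, a glycosyltransferase of the endoplasmic reticulum, had 0.612 and the kinase MAP3K5 0.609. Opposite to it ran JAGN1 at -0.575 (adjusted p = 5.49e-09), the metalloproteinase inhibitor TIMP1 at -0.556, FKBP4, a co-chaperone of steroid receptors, at -0.552, the nucleolar protein FBL at -0.544, the splicing regulator PTBP1 at -0.543 and CDR2L at -0.542. With FAM160A1 none of the rising genes exceeded 0.047, and FKBP4 had -0.212. The same genes had 0.468 to 0.523 and -0.404 to -0.348 with the component removed.

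**Figure D5:**
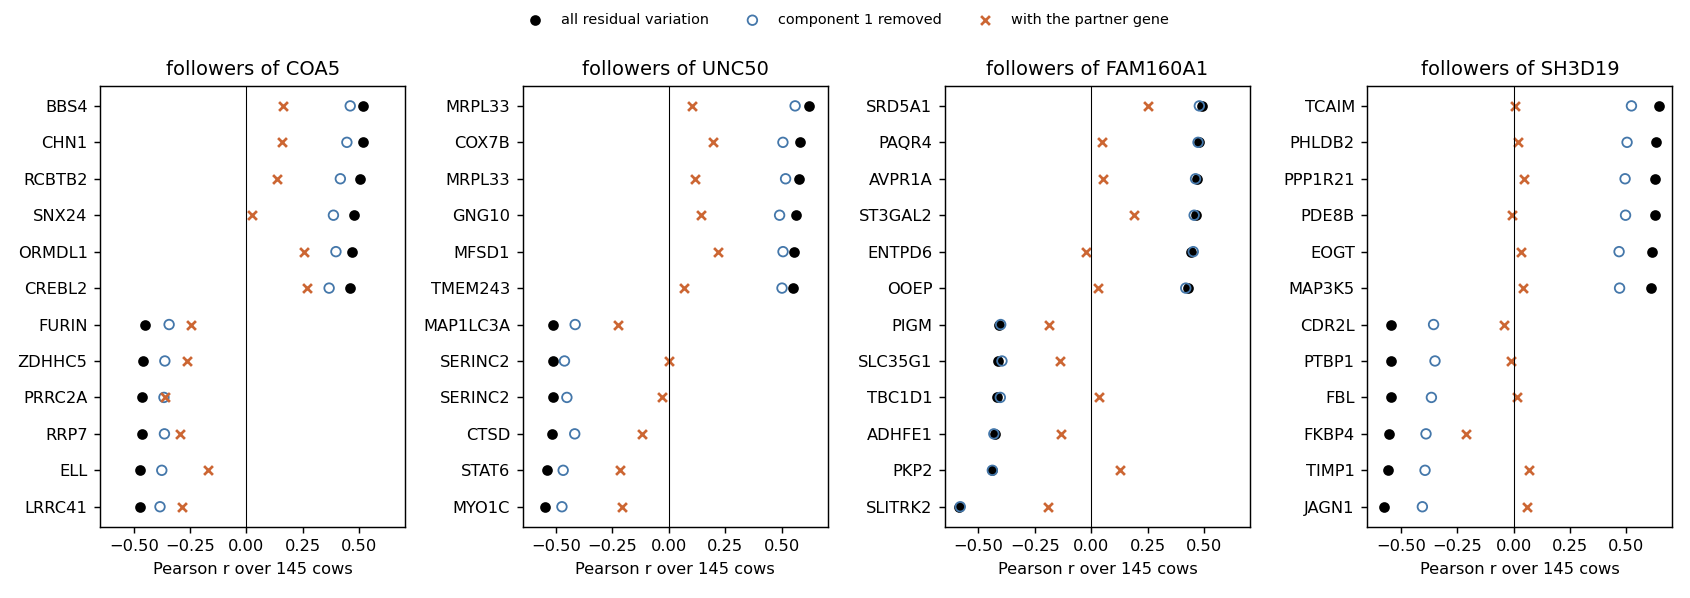
Pearson r over 145 cows of the 6 named transcripts with the highest and the 6 with the lowest residual correlation for each member. Filled points use all residual variation, open circles have the first component removed and crosses give r of the same transcript with the partner gene. The crosses lie between -0.212 and 0.068 for SH3D19, and open and filled points nearly coincide for FAM160A1. The transcripts were picked on the filled points, so smaller values with the partner follow from the choice.

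Lists of genes that work with each member were set beside it, the list chosen being the one its known role points to. For COA5 these are the other factors that assemble cytochrome c oxidase. Of 21 measured assembly genes 4 passed with COA5, COX15 and LRPPRC rising (r = 0.226 and 0.248) and COX10 and SURF1 falling (-0.305 and -0.297), or 19.0% beside 41.9% of all transcripts. The median r of the list was -0.0047, beside 0.0027 for all transcripts. Of 12 cytochrome c oxidase subunits 3 passed, COX4I1, COX5A and COX7A1, all falling with COA5 (-0.271, -0.212 and -0.219). Given the first component as a covariate, none of the 21 or the 12 passed with COA5 in limma, where 1.07% of all transcripts did, and 3 and 2 had an unadjusted p under 0.05. On arrays centred on their medians 2 of the 21 passed, both falling, where 24.5% of all transcripts passed.

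The same assembly genes were set beside UNC50, since it lies next to COA5. With UNC50 10 of 21 passed, 8 rising, led by COX20 (r = 0.550, adjusted p = 1.02e-07), COX16 (0.521) and COX11 (0.450), and 2 falling, COX10 (-0.346) and COX19 (-0.234). That share, 47.6%, was near its background of 49.5%. Of the 12 subunits only COX7B passed. Given the first component as a covariate, 8 assembly genes passed, all rising, where 13.0% of all transcripts did. The difference between COA5 and UNC50 in these counts was not tested.

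Of 30 measured genes of Golgi transport with ARF proteins and the COPI coat, 25 passed with UNC50, 14 rising and 11 falling, or 83.3% beside 49.5% of all transcripts. A share above the background was not particular to UNC50. With COA5 19 of the 30 passed (63.3% beside 41.9%), and with SH3D19 23 (76.7% beside 61.7%). With FAM160A1 0 passed, where 0.792% of all transcripts did. The values that follow are those with UNC50. The rising genes were led by YIPF4 (r = 0.540, adjusted p = 2.98e-07), GORASP2, which stacks Golgi cisternae (0.494), the cargo receptor TMED2 (0.429), YIPF5 (0.411) and TMED7 (0.404). GBF1, the ARF activator that UNC50 binds, fell with it (-0.296, adjusted p = 0.00494). The coat subunits were divided, COPB1, COPB2, ARCN1, COPA and COPG2 rising (0.205 to 0.308) and COPG1, COPE and COPZ1 falling (-0.320 to -0.258). The median r of the list was 0.182 beside 0.011 for all transcripts. Under the same covariate 6 of 30 passed, all rising, beside the 13.0% of all transcripts. On centred arrays 16 passed, 8 in each direction, beside 30.5% of all transcripts.

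None of 29 measured genes of the FHIP, Hook and dynein group passed with FAM160A1 in limma, and 9 had an unadjusted p under 0.05. As only 0.792% of all transcripts passed with FAM160A1, a count of 0 of 29 is near the background. With SH3D19 as a covariate 27 of the 29 passed, 14 rising and 13 falling, where 59.5% of all transcripts did. Such a count was not particular to FAM160A1. With the partner as a covariate, 28 passed with SH3D19, 26 with COA5 and 24 with UNC50. Of all transcripts, 72.9%, 64.0% and 65.5% did so. With the first component as a covariate 0 of the 29 passed with FAM160A1, where 1.28% of all transcripts did. Without a covariate the list was also above the background for COA5 (72.4% beside 41.9%), UNC50 (69.0% beside 49.5%) and SH3D19 (86.2% beside 61.7%). The largest r with FAM160A1 were 0.237 for VPS39, 0.236 for FHIP1B, a member of the same family, -0.224 for DCTN6 and 0.220 for DCTN1. AKTIP, which binds FHIP proteins directly, had -0.073 and HOOK3 0.057. The median r was 0.0040 beside -0.0065 for all transcripts.

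Of 9 measured genes for ADAM proteases and EGF receptor signalling, 5 passed with SH3D19, beside its background of 61.7%. ADAM10, a protease of that family, rose with it (r = 0.422, adjusted p = 1.11e-05), and so did SOS1 (0.475) and SOS2 (0.464), which activate Ras below the receptor. GRB2, the adaptor that carries SOS, fell (-0.370), as did RHBDF2, which brings ADAM17 to the cell surface (-0.360). ADAM17 itself had 0.072 and ADAM9 0.121. None of the 9 passed in limma once the first component was a covariate, beside 9.35% of all transcripts, and 3 had an unadjusted p under 0.05.

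Cell type marker scores moved with the members to a small degree. UNC50 had -0.329 with 7 of 12 fibroblast and capsule markers, whose summed log2 signal ran from 12.79 to 13.92 between cows, and -0.224 with 9 of 12 endothelial markers, from 11.85 to 12.77. COA5 had 0.239 with the endothelial list and -0.214 with 4 of 12 lymphocyte markers, from 7.93 to 10.91. FAM160A1 had 0.181 with the fibroblast list and 0.152 with the chromaffin list, and SH3D19 had -0.174 with the lymphocyte list. The part of these cells in the followers of each member was not tested. For the pairs, the values with the marker scores removed are those given above.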

How the data were processed

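Per the labels and the study's methods, the authors ran the arrays through Affymetrix Expression Console with RMA, which corrects background, quantile-normalizes between arrays and summarises probes, and a detection filter then removed transcripts not above background. What the authors deposited is a log2 signal for each of 10986 transcripts in 145 cows. In the table, 2 columns without values were not used. Versions of these tools are not given in the sources used here. Quantile normalization gives all arrays 1 distribution, so a change common to most transcripts cannot be seen.

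The array annotation pairs 8822 transcripts with a single symbol, 418 with several and 1746 with none. A gene with several transcripts was taken by the one with the highest mean. Coordinates of the members are those of the study on UMD3.1. Gene order came from RefSeq on another assembly, without strand, so pairs were not split by orientation as planned.

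Models were run in limma 3.58.1 (R 4.3.3): class with age, season with year and age, year with season and age, the last with class as a random block (statmod 1.5.0), as was season. Consensus correlations were -0.042 for season and -0.015 for year, and the fits that left out cows or years reused them. Followers were fitted with class, age and the residual of the member. p-values were adjusted by Benjamini-Hochberg over all transcripts at a threshold of 0.05. Log2 ratios of partners went through the same models. Components came from mclust 6.1.1, equal variance, up to 3 by BIC. Correlations within pairs, of residuals and of class means, are given without a test (numpy 2.4.6). Sire and dam terms of the study were not fitted, because the pedigree was not analysed here. The models were tested on simulated data with independent noise for each transcript and cow. That simulation held no component shared by transcripts and no related cows, so it does not give the error rate of these data. Precision is limited by the number of arrays.

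The members and the gene lists were chosen with earlier results of these data known. Named are the members, for each the 6 named transcripts with the highest and the 6 with the lowest correlation, measured genes among 15 on either side, list genes past the threshold or with the largest correlation, and the 3 highest and lowest neighbour pairs. No paired comparison applies, since each cow was measured once. Alternatives were other covariates, scaling, filters and left-out cows, years and classes.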

Additional observations from a re-analysis of the deposited data

Results flagged for a closer look

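In classes of 4 to 10 cows, a cow was marked where its gap to the nearest other cow took more of the class range than Dixon's 95% limit. Of 76 groups (19 classes for each of 4 members) 5 were marked, and chance marks about 1 in 20. In Summer2007 the lowest UNC50 value was 9.11, with the next cow at 9.56. The same cow had the highest COA5 value of its class, at 7.41. The lowest SH3D19 value of Summer2007, in another cow, was 7.34, with the next at 8.00. In summer 2008 the highest SH3D19 value was 8.73, with the next at 8.21. In winter 2010/2011 the lowest SH3D19 value was 7.45, with the next at 7.97. The highest FAM160A1 value of winter 2009/2010 was 7.73, with the next of the 4 cows at 6.36. The causes were not tested.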

How the results depend on the processing

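Over all cows, in each season and in the components of FAM160A1, the pair correlations kept their sign; in single years and classes the exceptions are those given above. Removing the first component gave -0.488 for COA5 and UNC50 and 0.630 for FAM160A1 and SH3D19, and removing the first 5, an alternative added after seeing the data, gave -0.601 and 0.698. COA5 and UNC50 reached -0.484 in summer, and FAM160A1 and SH3D19 had 0.659 in winter and 0.202 and 0.291 in the lower and higher component of FAM160A1. The 7 marker scores, also added after seeing the data, moved neither pair out of its 95% interval. The correlation of class means was near 0 for COA5 and UNC50 and changed sign: rho was -0.025, r was -0.078 without the 2 farthest class means, and it ran from -0.128 to 0.090 when single classes were left out. For FAM160A1 and SH3D19 it was 0.158 in classes with at least 5 cows and 0.258 without the 2 farthest.

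With the first component removed, the share of neighbour pairs at or below COA5 and UNC50 was 0.208%, and that at or above FAM160A1 and SH3D19 was 1.41%. Both pairs were chosen on their correlation in these cows, so these shares are a description only. After the same removal the median absolute correlation with chromosome neighbours was 0.085 for COA5, 0.099 for UNC50 and 0.119 for SH3D19.

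Counts of followers moved most. With the first component as a covariate they were 118 for COA5, 1428 for UNC50, 141 for FAM160A1 and 1027 for SH3D19. With the partner as a covariate they were 7031 for COA5 and 6533 for FAM160A1, of which 85 were among the original 87. With arrays centred on their medians they were 2695 for COA5, 3351 for UNC50 and 154 for FAM160A1. All 48 named followers kept their direction and passed in each of these alternatives, with the low filter and without the 2 cows farthest from the median (240 fits). They had been picked for their extreme correlations in these same cows, so passing again was likely from the start.

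Without year 1, 2 or 8 the number of members past the threshold for the year was 1 in place of 3. Leaving out single cows of small classes made the number for the class 0 to 1. Values never past the threshold changed sign as follows. The age slope of UNC50 was -0.00018 with centred arrays and -0.0014 to 0.016 without single cows. That of the ratio of FAM160A1 to SH3D19 was -0.0090 with season and year as terms and -0.014 to 0.017 without single cows. Its year slope was 0.0041 without year 3, 0.0045 without year 4, 0.0081 without year 8 and between -0.012 and 0.0060 without single cows. COA5 was 0.0083 for summer minus winter without year 5. For age, 1 transcript passed with season and year as terms and at most 1 without single cows, and for any season 1 passed without year 6. The causes were not tested. No paired analysis was possible because each cow was measured once and the replicate numbers only name cows.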
